A study of Homo sapiens with 10 samples.

Results

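The C-type clustered protocadherins are the last genes of the alpha and gamma protocadherin (PCDH) clusters on chromosome 5. The members were taken by symbol and number 5 of 24050 genes listed in either count table: PCDHAC1 and PCDHAC2 of the alpha cluster, and PCDHGC3, PCDHGC4 and PCDHGC5 of the gamma cluster. All 5 are listed in the tables of both cell types. Stranded mRNA was sequenced from HEK293T cells, a line derived from human embryonic kidney, and from neural progenitor cells (NPCs) made from the H1 human embryonic stem cell line. In HEK293T cells 3 WT and 3 ZNF274 KO libraries were compared, and in NPCs 2 WT and 2 ZNF274 KO libraries. ZNF274 is a KRAB zinc finger protein, and its gene had been deleted with a pair of guide RNAs in HEK293T cells, which were then sorted as single cells, and in the stem cells, from which colonies were picked. WT cells carry no deletion, and the series' design text calls the libraries biological replicates of independent clones. The labels do not say which clone a library came from or whether it was a separate culture, so P values measure the spread between these libraries, which may be partly technical.

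Clustered PCDHs are adhesion molecules of the nervous system that bind like molecules on neighboring membranes. In the alpha and gamma clusters each gene has its own promoter and a large variable first exon, which encodes the ectodomain and is spliced to constant exons shared by the whole cluster. Most isoforms, called alternate, are switched on in a few per neuron by promoter choice that involves CTCF, cohesin and DNA methylation, whereas C-type isoforms are switched on according to the type and stage of the neuron. PCDHAC2 is known for axon tiling of serotonergic neurons, PCDHGC3 for dendrite growth of cortical neurons, and PCDHGC4 for neuronal survival. PCDHAC1 and PCDHGC4 need other PCDHs to reach the cell surface.

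In hg19 coordinates and on the plus strand, PCDHAC1 (ENSG00000248383) lies at chr5:140305884-140391932 and PCDHAC2 (ENSG00000243232) at chr5:140346055-140391932. They are genes 15 and 16 of 16 in the alpha cluster. PCDHGC3 (ENSG00000240184) lies at chr5:140855514-140892544, PCDHGC4 (ENSG00000242419) at chr5:140864564-140892542 and PCDHGC5 (ENSG00000240764) at chr5:140868648-140892542, as genes 22, 23 and 24 of 24 in the gamma cluster. The spans overlap because the constant exons are annotated in each gene. The first constant exon has 59 bases in both clusters and is shown here because its reads cannot be told apart between the genes of a cluster. In the alpha cluster it lies at chr5:140358534-140358592 and is annotated in 15 genes, and in the gamma cluster at chr5:140874374-140874432 and in 22 genes. The bases below are from the GRCh37 genome, plus strand, with positions that are identical in both exons in capitals (39 of 59, 66.1%).
alpha constant exon: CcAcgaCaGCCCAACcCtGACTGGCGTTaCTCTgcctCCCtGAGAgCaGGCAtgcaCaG
gamma constant exon: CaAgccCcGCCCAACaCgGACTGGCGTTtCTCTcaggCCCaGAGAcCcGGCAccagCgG
Outside the shared sequence the members keep 4147, 3272, 3253, 2793 and 2849 bp of exons of their own, in the order given above. Levels between genes were compared only as CPM (counts scaled to the size of the library) per kb of this unshared length. The lengths come from the GENCODE annotation v44lift37 and may differ from those of the annotation that was counted, which is not given in the sources used here, and per kb levels and ratios between members rest on them. PCDHGC5 had 0 to 6 counts in HEK293T libraries where PCDHGC3 and PCDHGC4 had up to 116 and 121, so reads on the constant exons were not added to every gene that carries them. An antisense lncRNA (ENSG00000279028, chr5:140345797-140346075) overlaps the start of PCDHAC2.

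The promoters are shown because PCDHGC3 and PCDHGC4 were both called higher in KO HEK293T cells, while in KO NPCs PCDHGC4 was called lower and PCDHGC3 was not called. They are the 250 bases before the annotated start, from RefSeq on GRCh38.p14, plus strand, for the 4 members with an entry: PCDHAC1 at chr5:140926049-140926298, PCDHAC2 at chr5:140966226-140966475, PCDHGC3 at chr5:141475716-141475965 and PCDHGC4 at chr5:141484780-141485029, the upstream of 2 listed starts. Capitals mark CGCT, the core letters of the conserved element of PCDH promoters, and CCAAT, the CCAAT box, each on either strand. The letters CGCT do not show that a promoter holds the conserved element, and the whole element was not looked for.
PCDHAC1 promoter: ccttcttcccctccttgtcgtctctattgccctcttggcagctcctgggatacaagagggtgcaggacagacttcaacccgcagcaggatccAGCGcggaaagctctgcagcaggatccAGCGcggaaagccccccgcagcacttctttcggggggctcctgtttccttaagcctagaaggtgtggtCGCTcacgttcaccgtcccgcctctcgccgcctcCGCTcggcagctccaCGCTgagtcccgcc
PCDHAC2 promoter: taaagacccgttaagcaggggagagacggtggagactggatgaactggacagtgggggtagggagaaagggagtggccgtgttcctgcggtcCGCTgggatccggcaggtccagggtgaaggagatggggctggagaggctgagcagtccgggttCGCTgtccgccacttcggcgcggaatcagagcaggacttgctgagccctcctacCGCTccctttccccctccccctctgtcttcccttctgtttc
PCDHGC3 promoter: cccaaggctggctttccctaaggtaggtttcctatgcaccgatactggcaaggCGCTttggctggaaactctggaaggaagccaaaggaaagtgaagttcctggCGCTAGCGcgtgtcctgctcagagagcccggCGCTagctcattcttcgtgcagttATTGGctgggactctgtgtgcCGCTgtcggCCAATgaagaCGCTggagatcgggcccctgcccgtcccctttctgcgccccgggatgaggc
PCDHGC4 promoter: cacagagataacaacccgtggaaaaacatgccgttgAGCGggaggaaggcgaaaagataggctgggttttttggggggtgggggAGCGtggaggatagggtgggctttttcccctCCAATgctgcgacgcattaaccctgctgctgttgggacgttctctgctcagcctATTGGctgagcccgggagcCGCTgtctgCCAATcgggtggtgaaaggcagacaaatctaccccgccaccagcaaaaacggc
CGCT or its reverse complement was in all 4, in 32 of 33 windows of alternate isoforms and in 64.8% of 35116 promoter windows of the same length, so the letters alone are common. CCAAT was in the promoters of PCDHGC3 and PCDHGC4 but not in those of PCDHAC1 and PCDHAC2, against 7 of 33 alternates and 32.0% of all windows. The longest stretch shared by PCDHGC3 and PCDHGC4 with at most 1 mismatch had 16 bases, GCCGCTGTCNGCCAAT, and holds the letters CGCT and CCAAT. It ends 57 bases before the start of PCDHGC3 and 49 bases before that of PCDHGC4. Among all windows it was found in 3, those of PCDHGC3 and of both starts of PCDHGC4, and in 0 of 33 windows of alternate isoforms. Its first 12 letters from CGCT on, CGCTGTCNGCCA, were also in the promoters of PCDHAC2 and of 1 alternate, PCDHGB6, and in 8 windows in all. GC content was 63.2% for PCDHAC1, 62.4% for PCDHAC2, 60.0% for PCDHGC3 and 57.6% for PCDHGC4. The 16-base stretch was picked as the longest match of these 2 promoters, so its presence in them was set by that choice. Few other windows can hold so long a stretch, so its rarity does not show a shared element. The longest stretches of the other pairs of members had 10 to 13 bases and were in 8 to 62 windows, with 0 or 1 alternates. These matches were looked for after the counts were known and are a description of the letters.

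Libraries held 21421013 to 32285876 counts on genes in HEK293T cells and 18621266 to 23035490 in NPCs. A level of 3 counts, taken as the floor below which a gene is not distinguished from 0, was 0.0916 to 0.154 CPM. KO HEK293T library S18 stood further from the other 2 libraries of its group than they did from each other (chi-square per degree of freedom 81.9 and 72.0 against 26.3). Without it the log2 FC of KO against WT HEK293T cells was 2.97 for PCDHGC3 and 2.59 for PCDHGC4 (adjusted P = 0.00786 and 0.00726), and the KO effect in NPCs minus that in HEK293T cells was -2.21 and -5.32 (adjusted P = 0.0263 and 6.62e-05). ZNF274 was at 15.3 ± 1.13 CPM (SD, n = 3) in WT HEK293T cells and at 24.4 ± 1.47 CPM (SD, n = 2) in WT NPCs, and had 0 counts in all 5 KO libraries. All 10 neural progenitor markers had counts in the WT NPC libraries, with a summed level of 2909 to 3919 CPM, mostly NES. The summed level of mesenchymal markers there was 1237 to 2131 CPM.

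In WT HEK293T cells the alpha C-type genes were not detected and the gamma C-type genes were low. PCDHAC1 and PCDHAC2 had 0 counts in each of the 3 WT libraries, so their levels lay below a floor of 0.0994 to 0.103 CPM. PCDHGC3 was at 0.696, 0.310 and 0.304 CPM and PCDHGC4 at 0.762, 0.654 and 0.405 CPM. PCDHGC5 had 2, 0 and 4 counts, at or near the floor. Per kb of unshared exon, PCDHGC4 was at 0.217 ± 0.0656 and PCDHGC3 at 0.134 ± 0.0691 CPM per kb (SD, n = 3), and the libraries of these neighbors in the order overlapped.

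All 5 members were higher in WT NPCs than in WT HEK293T cells, as were 25.2% of the 19255 genes tested (called at an adjusted P value below 0.05 and FC above 2, 40.7% in either direction). No library of 1 group overlapped the other for any of the 5, which held for 39.3% of genes in this direction. Among the gamma members, which had counts in both groups, PCDHGC3 differed most, at 29.6 and 17.1 CPM in WT NPCs, with a log2 FC of 5.72 ± 0.44 (SE, adjusted P = 4.96e-07). PCDHGC4 was at 9.79 and 7.43 CPM, with a log2 FC of 3.81 ± 0.42 (adjusted P = 8.76e-06). For PCDHAC1 and PCDHAC2, which had 13 and 13 and 18 and 17 counts in WT NPCs, only lower bounds can be given. Against the floor of 3 counts per library PCDHAC1 was at least 6.33-fold and PCDHAC2 at least 8.52-fold higher. PCDHGC5, at 0.618 and 0.256 CPM, was called with a log2 FC of 2.62 ± 0.94 (adjusted P = 0.0314). Its call was lost without WT HEK293T library S15 or S16 or WT NPC library S3, with adjusted P values of 0.0703, 0.0742 and 0.247. In this comparison cell type, culture and library preparation cannot be told apart, nor, in bulk RNA, a larger number of cells that express a gene from more RNA per cell.

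Per kb of unshared exon, WT NPCs ranked the members as PCDHGC3 (7.16 ± 2.72 CPM per kb, SD, n = 2), PCDHGC4 (3.08 ± 0.60), PCDHAC2 (0.264 ± 0.00333), PCDHAC1 (0.155 ± 0.00821) and PCDHGC5 (0.153 ± 0.0897). The libraries of each neighboring pair in that order were apart, except those of PCDHAC1 and PCDHGC5. PCDHGC3 and PCDHGC4 were above the other 3 members in both libraries.

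**Figure D1:**
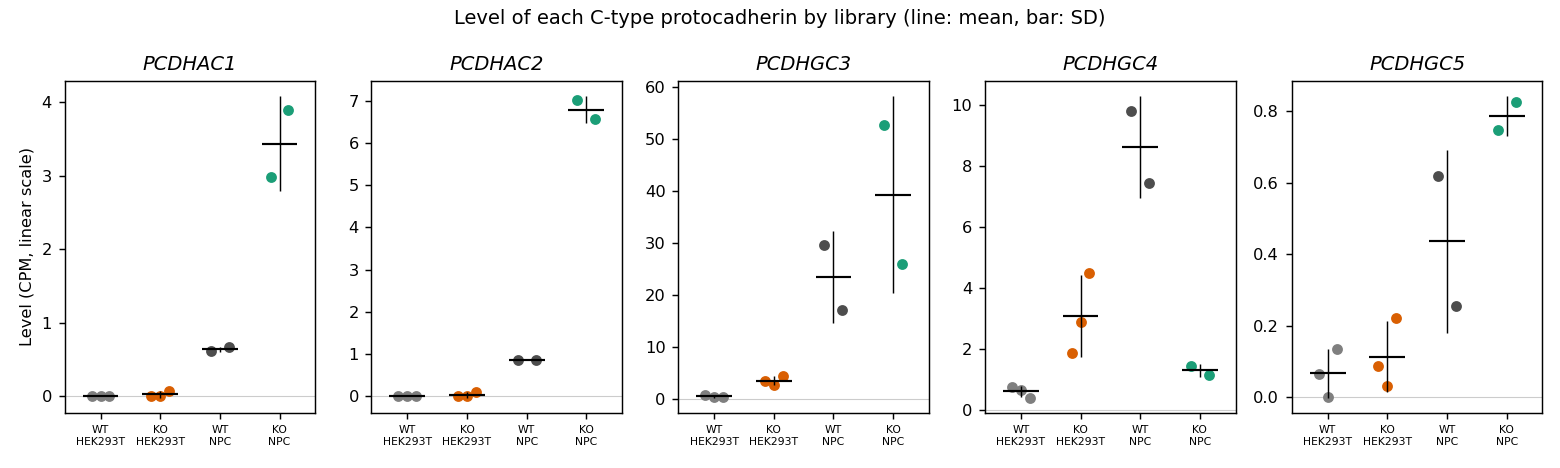
Level of each C-type PCDH in CPM on a linear axis that differs between panels, with 1 point per library, the mean as a horizontal line and the SD as a bar, for WT and KO HEK293T cells (3 libraries each) and WT and KO NPCs (2 each). PCDHAC1 and PCDHAC2 are highest in KO NPCs, and PCDHGC4 is highest in WT NPCs at 9.79 and 7.43 CPM and falls to 1.44 and 1.15 CPM in KO NPCs.

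The comparison of KO with WT HEK293T cells asks whether the C-type genes are kept low by ZNF274 in a line derived from embryonic kidney. PCDHGC3 and PCDHGC4 rose, and PCDHAC1, PCDHAC2 and PCDHGC5 stayed at or near the floor. Of the 3 members tested 2 were called higher and 0 lower, where 0.489% of 19018 genes were called, 0.478% higher and 0.0105% lower. PCDHGC3 was at 0.696, 0.310 and 0.304 CPM in WT and at 3.42, 2.59 and 4.31 CPM in KO libraries. The lowest KO library was above the highest WT library. Its log2 FC was 2.97 ± 0.42 (SE, edgeR quasi-likelihood test, adjusted P = 0.00743), a 7.81-fold change. PCDHGC4 was at 0.762, 0.654 and 0.405 CPM in WT and at 1.86, 2.87 and 4.50 CPM in KO libraries. The groups were again apart, as were 7.16% of all genes in this direction. Its log2 FC was 2.34 ± 0.42 (adjusted P = 0.0376), a 5.06-fold change. Both rises rest on few counts, 39 and 54 in the WT and 280 and 258 in the KO libraries in total. Without WT library S16 or S17 the adjusted P value of PCDHGC3 was 0.0935 or 0.0578, and that of PCDHGC4 0.237 or 0.235. PCDHGC4 also lost its call without S15 (0.121), S19 (0.0769) or S20 (0.107) and with voom (0.0784), while its log2 FC stayed between 1.97 and 2.59 under all 13 alternatives.

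PCDHGC5 had 2, 0 and 4 counts in WT and 2, 1 and 6 in KO HEK293T libraries. The groups overlapped, and the log2 FC of 0.69 ± 1.12 was not called (adjusted P = 0.918). PCDHAC1 had 0, 0 and 2 and PCDHAC2 0, 0 and 3 counts in KO libraries S18, S19 and S20. Both groups of these genes were at or below the floor, so a change was not detectable at this depth and no FC is given. In the same libraries the alternate isoforms of the alpha cluster had 0 to 2 summed counts in WT and 21 to 79 in KO libraries, most of them on PCDHA1. This gene, the 1 called of 2 tested, had 1 count in WT and 117 in KO libraries in total, and it keeps almost no unshared exon in the annotation used here. In the beta cluster 6 of 17 tested genes were called higher, against 0.478% of all genes (11 by DESeq2 and 2 by voom, which called 164 and 80 genes in either direction in place of 93). The gamma alternates had 0 of 16 tested members called by edgeR, 1 by DESeq2 and 0 by voom, and 8 had an unadjusted P value below 0.05. Their median log2 FC was 1.80, also without the 2 genes that had both groups at the floor, against 0.01 over all genes tested. Of the 16 gamma alternates 15 had a log2 FC above 0, and the highest, 4.37, was above the values of PCDHGC3 and PCDHGC4. The 22 listed genes of the gamma cluster had 115 to 153 counts together per WT library, so many alternates had few counts. By edgeR PCDHGC3 and PCDHGC4 were the 2 called genes of 19 tested in the gamma cluster in HEK293T cells, and no test compared them with the alternates.

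In NPCs the comparison of KO with WT split the members. The alpha C-type genes PCDHAC1 and PCDHAC2 rose, PCDHGC4 fell, and PCDHGC3 and PCDHGC5 were not called. Thus 2 of 5 members were called higher and 1 lower, where 8.45% of 20577 genes were called higher and 8.36% lower. PCDHAC1 was at 0.618 and 0.666 CPM in WT and at 2.98 and 3.90 CPM in KO libraries. The log2 FC was 2.40 ± 0.41 (SE, edgeR quasi-likelihood test, adjusted P = 0.00534), a 5.27-fold change. Of 11 alternatives 1 lost the call, the fit without KO library S2 (2.19, adjusted P = 0.0591). PCDHAC2 was at 0.855 and 0.871 CPM in WT and at 7.01 and 6.56 CPM in KO libraries. Its libraries lay close together in each group, and the groups did not overlap, as for 33.3% of all genes in this direction. The log2 FC was 2.95 ± 0.32 (adjusted P = 0.000924), a 7.74-fold change, and the call held under all 11 alternatives. PCDHAC2 is known for its role in serotonergic neurons. Of their markers TPH2, FEV and SLC6A4 are not listed in the NPC table, and GATA2 was at 0 to 0.497 CPM in NPC libraries. Whether such cells have a part in the rise of PCDHAC2 was not tested.

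PCDHGC4 went the other way. It was at 9.79 and 7.43 CPM in WT and at 1.44 and 1.15 CPM in KO NPC libraries, or 206 and 145 against 29 and 25 counts. Every KO library was below every WT library, as for 33.8% of all genes in this comparison. The log2 FC was -2.74 ± 0.32 (adjusted P = 0.00123), a 6.70-fold change, and the call held under all 11 alternatives with values from -2.94 to -2.53. The level of 1.29 ± 0.21 CPM in KO NPCs (SD, n = 2) was still above the floor.

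PCDHGC3, the most abundant member per kb, was at 29.6 and 17.1 CPM in WT and at 52.6 and 25.8 CPM in KO NPC libraries. The groups overlapped, since WT library S3 was above KO library S2. The log2 FC of 0.74 ± 0.37 was not called (adjusted P = 0.185). It was called when S3 was left out (1.18, adjusted P = 1.00e-10), a fit in which the lone WT library is assumed to vary like the KO libraries, and was 0.12 to 1.18 over the alternatives. PCDHGC5 was at 0.618 and 0.256 CPM in WT and at 0.746 and 0.825 CPM in KO libraries. The groups did not overlap, as for 33.3% of all genes in this direction, but on 5 to 18 counts the log2 FC of 0.82 ± 0.67 was not called (adjusted P = 0.410).

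**Figure D2:**
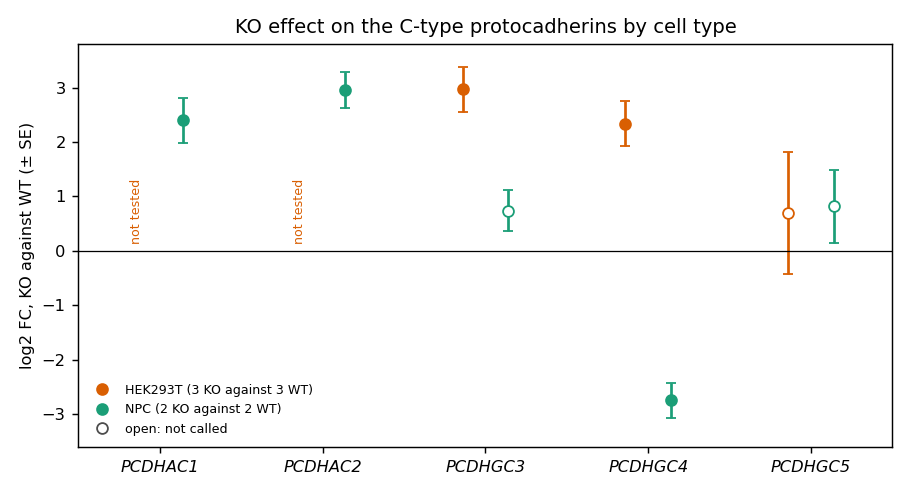
Log2 FC of KO against WT with its SE for each C-type PCDH, in HEK293T cells (3 against 3 libraries) and NPCs (2 against 2). Filled points passed the thresholds, and PCDHAC1 and PCDHAC2 were not tested in HEK293T cells. PCDHGC4 lies at 2.34 in HEK293T cells and at -2.74 in NPCs.

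For the gamma members, an interaction term over all 10 libraries tested whether the KO effect differed between HEK293T cells and NPCs. Of the 3 gamma members 2 were called, both with a lower effect in NPCs, where 6.22% of 19255 genes were called in that direction and 6.01% in the other. The difference was -5.06 ± 0.61 on the log2 scale for PCDHGC4 (SE, edgeR quasi-likelihood test, adjusted P = 0.000232), and it passed under all 16 alternatives. For PCDHGC3 it was -2.21 ± 0.58 (adjusted P = 0.0232). The call of PCDHGC3 was lost without WT library S16 (0.0627), S17 (0.0667) or S3 (0.0882), without KO library S2 (0.0936) and with voom (0.0657), with values of -1.76 or below throughout. For PCDHGC5 it was 0.15 ± 1.71 (adjusted P = 1.0), which leaves a change in either direction possible at this depth. It cannot be estimated for PCDHAC1 and PCDHAC2, whose HEK293T groups were both at or below the floor.

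The order of the members in KO NPCs was not that in WT NPCs. Per kb of unshared exon the levels were 12.1 ± 5.83 for PCDHGC3 (CPM per kb, SD, n = 2), 2.07 ± 0.0983 for PCDHAC2, 0.830 ± 0.156 for PCDHAC1, 0.463 ± 0.0749 for PCDHGC4 and 0.276 ± 0.0197 for PCDHGC5, with no overlap between neighbors. PCDHGC4, next to the top in WT NPCs, was below both alpha members. In KO HEK293T cells PCDHGC4 (1.10 ± 0.476) and PCDHGC3 (1.06 ± 0.264 CPM per kb, SD, n = 3) overlapped and both lay above PCDHGC5 (0.0398 ± 0.0347). The ratio of PCDHGC3 to PCDHGC4 per kb was 0.784, 0.407 and 0.644 in WT and 1.58, 0.776 and 0.823 in KO HEK293T libraries, and 2.59 and 1.97 in WT and 31.3 and 19.3 in KO NPC libraries. The highest ratio was 1.58 in HEK293T libraries, and the lowest was 19.3 in KO NPC libraries.

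Within KO backgrounds, 4 members were higher in NPCs than in HEK293T cells and 1, PCDHGC4, was lower, where 39.8% of genes were called, 23.7% higher and 16.2% lower. Groups did not overlap for any member (38.5% and 33.3% of genes). PCDHGC3 had a log2 FC of 3.51 ± 0.38 (adjusted P = 7.09e-06, and 2.91 without KO library S1) and PCDHGC5 one of 2.77 ± 0.86 (adjusted P = 0.0153). PCDHAC1 was at least 31.0-fold and PCDHAC2 at least 61.1-fold higher, against the floor of 3 counts per library. For PCDHGC4 the log2 FC was -1.25 ± 0.43 (adjusted P = 0.0249). Its call was lost without KO library S20, S1 or S2, with adjusted P values of 0.0975, 0.0735 and 0.146, and that of PCDHGC5 without S19 (0.0574) or S2 (0.0641).

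The share of C-type members among the counts of their cluster shows whether they moved with the alternate isoforms. It is given as a description by library, with 95% Wilson intervals that cover counting error only. In the alpha cluster of NPCs it was 3.43% (2.43 to 4.83) and 4.57% (3.22 to 6.44) in WT and 9.66% (8.46 to 11.0) and 10.4% (9.23 to 11.8) in KO libraries. The cluster as a whole went from 903 and 657 to 2081 and 2182 counts, so the C-type members rose by more than the cluster total. This was not limited to them. Among the alternates PCDHA3 had group means of 1.33 CPM in WT and 9.80 CPM in KO NPCs, while PCDHA4 was at 8.73 and 8.19 CPM. No test compared the C-type members with the alternates. In WT HEK293T cells the alpha cluster had at most 2 counts and no share can be given. In the gamma cluster of HEK293T cells the share was 30.1%, 20.4% and 21.7% in WT and 44.9%, 38.4% and 48.1% in KO libraries. The groups were apart, on 115 to 153 and 276 to 505 cluster counts. In NPCs the gamma share was 32.4% and 21.1% in WT and 28.6% and 18.2% in KO libraries, which overlap. Within it PCDHGC4 went from 7.93% and 6.33% to 0.754% and 0.749%, while PCDHGC3 was at 24.0% and 14.5% in WT and at 27.5% and 16.9% in KO libraries.

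**Figure D3:**
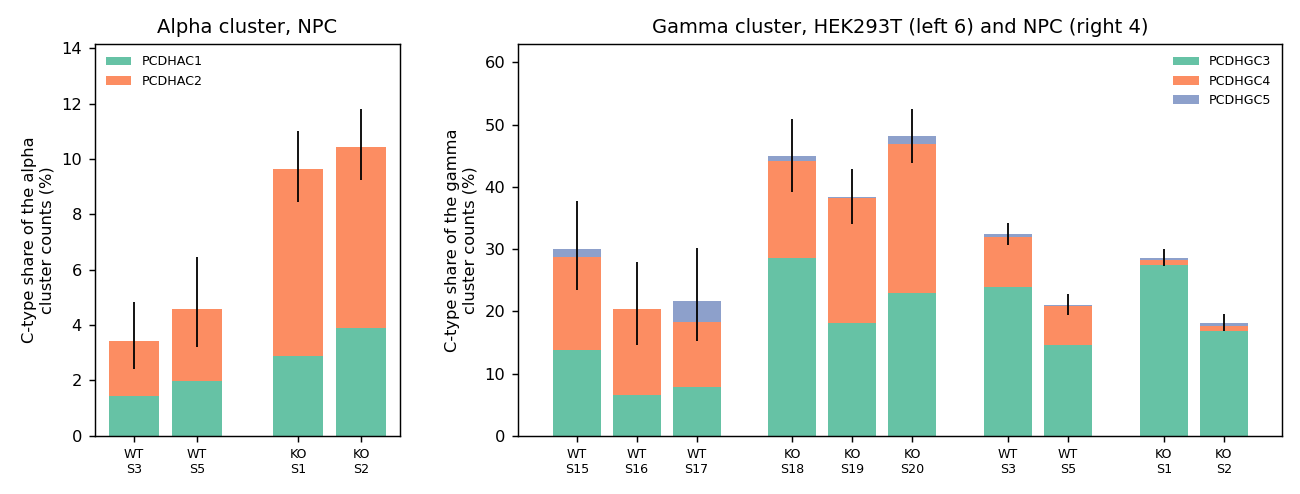
Share of the counts of the alpha cluster (NPC libraries, left) and of the gamma cluster (all 10 libraries, right) that fell on each C-type member, in percent of the cluster's counts, with the 95% Wilson interval of the summed share as a line. The C-type share of the gamma cluster is 38.4 to 48.1% in KO and 20.4 to 30.1% in WT HEK293T libraries, and the PCDHGC4 segment is below 1% in both KO NPC libraries.

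Among the alternate isoforms of NPCs, which share the constant exons with the members, 6 of 14 alpha and 6 of 19 gamma genes were called higher, against 8.45% of all genes, and 0 lower. DESeq2 and voom also called 0 lower, and 0 had a negative log2 FC with an unadjusted P value below 0.05. Their median log2 FC was 1.38 and 1.16, and 1.43 and 1.16 with genes that had a group at 0 counts set to their bound and a gene with both groups at the floor left out. The median over all genes tested was -0.02. PCDHGC4 was the 1 gene called lower of 22 tested in the gamma cluster. The gamma alternate with the lowest value, PCDHGA11, had a log2 FC of -2.88 ± 1.32 that was not called (adjusted P = 0.149) and its groups overlapped. In the beta cluster, whose genes have no constant exons, 12 of 17 were called higher. The difference between the cell types was called by edgeR for 0 of 19 gamma alternates (2 by DESeq2, 0 by voom, 3 with unadjusted P values below 0.05), of which 16 had enough counts to be tested in HEK293T cells alone. Their median difference was -0.86, with 6 of 19 above 0, and in the beta cluster 1 of 17 was called lower with a median of -1.07, against -0.03 over all genes, of which 6.22% were called lower. The difference is not given for the alpha alternates, of which 2 had.

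**Figure D4:**
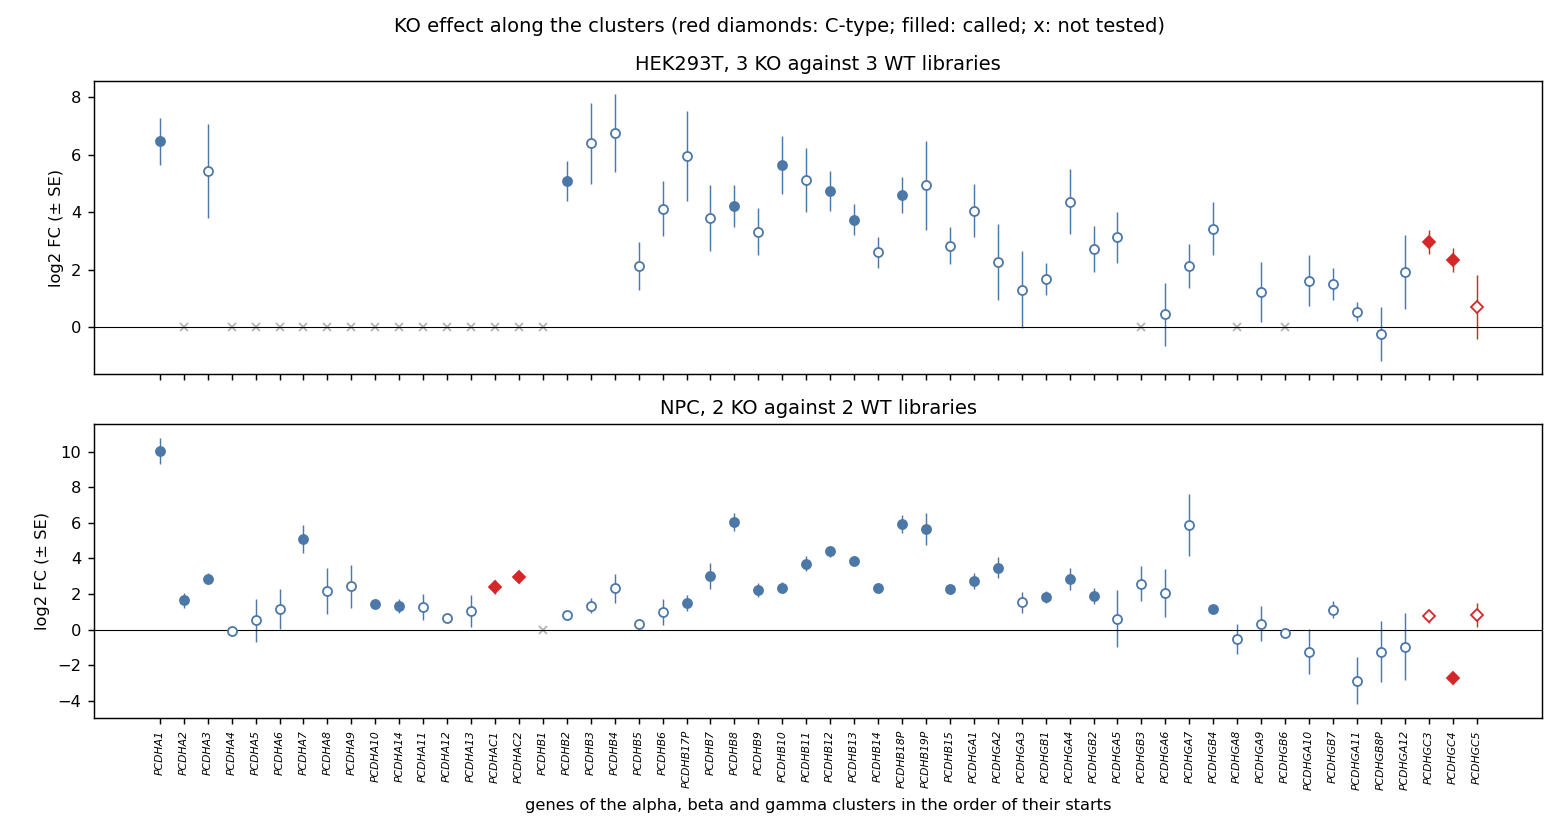
Log2 FC of KO against WT with its SE for the listed genes of the alpha, beta and gamma clusters in the order of their starts, in HEK293T cells (top) and NPCs (bottom). Red diamonds are the C-type members, filled points passed the thresholds, and crosses were not tested. Values of genes with a group at 0 counts depend on the prior count of the fit, and PCDHGC4 is the filled point below 0 in NPCs, at -2.74.

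Genes that act on PCDH promoters and genes whose products bind or cut PCDH proteins were counted from lists of 21 and 26. Among the regulators, which include CTCF, cohesin subunits, DNA methyltransferases and TET enzymes, 0 of 21 were called in KO HEK293T cells by edgeR, DESeq2 or voom, where 0.489% of all genes were called by edgeR, 1 had an unadjusted P value below 0.05, and the list had a median log2 FC of -0.01. In KO NPCs 0 were called higher by any of the 3 tools, and 2 of 21 were called lower, a share close to the 8.36% of all genes called lower there. The list leaned down, with a median of -0.31 and 3 of 21 above 0. At an unadjusted P value below 0.05, 2 were higher and 10 lower by each tool, where 8300 of 20577 genes passed in either direction by edgeR. The 2 called lower were DNMT3B, a de novo DNA methyltransferase (-1.92 ± 0.22, adjusted P = 0.00106), and TET1, which oxidizes methylcytosine (-1.58 ± 0.15, adjusted P = 0.000547). DNMT3B was at 69.2 and 82.1 CPM in WT and at 16.1 and 24.4 CPM in KO NPCs. CTCF, which has a part in the promoter choice of alternate isoforms, was at 105 ± 5.16 CPM in WT and 98.5 ± 5.45 CPM in KO NPCs (SD, n = 2) and was not called. Between WT cell types 1 of 21 was called higher and 1 lower, below the 25.2% and 15.5% of all genes. DNMT3A, the other de novo enzyme, was higher in NPCs (3.32 ± 0.22, adjusted P = 1.13e-07), at 90.6 ± 10.3 against 9.04 ± 0.47 CPM. DNMT1, the maintenance enzyme, was lower (-1.03 ± 0.17, adjusted P = 0.000263), but it did not pass the FC threshold with DESeq2 (-0.96), its size factors in edgeR (-0.96), library size alone (-0.94) or filterByExpr (-0.99), or without WT library S15 (-0.96).

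Of the partners and proteases 0 of 24 tested were called in KO HEK293T cells by edgeR, DESeq2 or voom, against 0.489% of all genes by edgeR, 1 had an unadjusted P value below 0.05, and the list had a median log2 FC of 0.02. In KO NPCs 2 of 24 were higher and 2 lower, shares close to the 8.45% and 8.36% of all genes, with a median of 0.10. RET, a receptor tyrosine kinase found with PCDH proteins, was higher (3.23 ± 0.33, adjusted P = 0.000682), as was ADAM10, the protease that sheds their ectodomains (1.23 ± 0.11, adjusted P = 0.000404). NLGN2, a neuroligin of inhibitory synapses (-1.50 ± 0.13, adjusted P = 0.000402), and WASF1, a subunit of the WAVE complex of actin assembly (-1.22 ± 0.12, adjusted P = 0.000551), were lower. ADAM10 was at 87.3 and 87.7 CPM in WT and at 196 and 217 CPM in KO NPC libraries.

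Markers of other cell types moved with the KO in NPCs, where 8.45% of all genes were called higher and 8.36% lower. Of 10 neural progenitor markers 7 were lower in KO NPCs, among them SOX2 (-3.72 ± 0.23, adjusted P = 0.000107), and SOX9 was higher, while HES5 had 0 counts in KO NPCs. The summed level was 2909 to 3919 CPM in WT and 3311 to 3366 CPM in KO NPCs, as NES, which makes up most of it, was not called. Of 10 neuronal markers 5 were lower and 1 higher, and their sum was 1111 to 1203 CPM in WT and 184 to 227 CPM in KO NPCs, with none at 0. The 1 higher, ELAVL4, was not called by DESeq2 (adjusted P = 0.0561) or voom (0.110). Of 8 mesenchymal markers 4 were higher, among them COL1A1 (2.53 ± 0.12, adjusted P = 3.46e-05), with sums of 1237 to 2131 and 5194 to 5944 CPM and none at 0. Of 6 epithelial markers 3 were higher, with sums of 342 to 599 and 1326 to 1502 CPM and none at 0. Of these KRT8 (log2 FC 1.11) was not called by edgeR in 1 fit of all 10 libraries (adjusted P = 0.0832). Its log2 FC was 0.77 without WT library S5. The fall of PCDHGC4 and the rise of PCDHAC1 and PCDHAC2 in NPCs stand beside these changes, and the part of cell makeup in them was not tested. GABAergic markers summed to 1.52 to 3.59 CPM in WT and 0.688 to 1.79 CPM in KO NPCs, with DLX5 and GAD1 at 0 in KO. Of them 1 of 4 tested was called lower, GAD2, which had 83 counts in WT and 1 in KO NPCs in total. Of 3 glutamatergic markers tested 1 was called lower, TBR1, with 30 counts in WT and 1 in KO NPCs, and their sums were 1.33 to 1.76 and 1.29 to 1.38 CPM. With voom neither GAD2 nor TBR1 was called. Nor were SOX1 (adjusted P = 0.200), counted above among the lower progenitor markers, and TWIST1 (0.0750), counted among the higher mesenchymal ones. Of 3 pluripotency markers tested 1 was lower, LIN28A (-5.62 ± 0.27, adjusted P = 4.25e-05), with sums of 138.6 to 161 and 61.2 to 64.9 CPM, NANOG at 0 in KO, and POU5F1 and TDGF1 not listed. Astrocyte markers summed to 5.22 to 6.32 and 3.03 to 5.97 CPM. In HEK293T cells 0 of 37 tested members of all marker lists were called by edgeR, DESeq2 or voom between KO and WT, where 0.489% of all genes were called by edgeR, 2 had an unadjusted P value below 0.05, and the neuronal sum was 7.05 to 9.54 CPM in WT and 9.37 to 14.3 CPM in KO libraries.

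Across the 10 libraries, log2 CPM of PCDHAC1 and PCDHAC2 went together (Pearson's r = 0.998), and PCDHGC4 followed the other members least (r = 0.276 with PCDHAC1, 0.265 with PCDHAC2, 0.352 with PCDHGC5 and 0.632 with PCDHGC3). These are descriptions over libraries of 4 groups, which set most of the r values. Among 12442 protein-coding genes outside the clusters, with a mean of at least 1 CPM, the 3 most like PCDHAC1 were ASB2 (r = 0.996), TNFRSF12A (0.996) and CRIM1 (0.994). The 3 most like PCDHAC2 were CRIM1 (0.995), F2RL2 (0.995) and TNFRSF12A (0.994), so the alpha members share 2 of 3. ASB2 was at 0 CPM in WT and 0.0124 CPM in KO HEK293T cells, and at 1.24 and 8.43 CPM in WT and KO NPCs. The genes most like PCDHGC4 were KDM6B (r = 0.990), FAM227B (0.951) and PAN2 (0.942). KDM6B, a histone H3K27 demethylase, had group means of 11.9, 16.8, 22.6 and 14.4 CPM in WT HEK293T, KO HEK293T, WT NPC and KO NPC libraries. The 4 groups had the same order for PCDHGC4, which is largely set by the choice of KDM6B for its correlation over these libraries. Group means of PCDHGC4 spanned a wider range for its level, 0.607 to 8.61 CPM. For PCDHGC3 they were CDIN1 (0.980), TTC23 (0.979) and ZFP90 (0.978), and for PCDHGC5, whose counts are few, SCN2B (0.961), MADD (0.961) and PAQR7 (0.958).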

How the data were processed

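Members and gene lists were chosen with earlier results of these data known. Per the labels and the study's methods, the authors aligned reads of stranded mRNA libraries with HISAT2 (hg19), assigned uniquely mapping ones to genes with featureCounts, and deposited raw counts for each cell type, without normalization. Versions and the gene annotation of the counting are not given in the sources used here. Transposable elements and the other assays were not analysed here.

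Groups came from the labels. Symbols, hg19 coordinates and exon lengths were taken from the GENCODE annotation on that build (23273 of 24050 identifiers matched). Genes with a total count of at least the number of libraries were tested by edgeR 4.0.16 in R 4.3.3 (TMM normalization, quasi-likelihood test, Benjamini-Hochberg adjustment over all genes tested), each cell type alone, and over 10 libraries for the interaction and the cell types. Genes were called at an adjusted P value below 0.05 and FC above 2. SE values were calculated back from the test statistic. CPM was normalized by TMM over the 10 libraries. Floors (3 counts) and 95% Wilson intervals cover counting error only, since reads carry no molecular identifiers. Named genes were ZNF274, all members, and list members called, at most 8 per list and comparison. Other genes named (CTCF, NES or PCDHGA11, for example) were chosen after their values were seen. The genes most like a member were the 3 with the highest Pearson correlation of log2 CPM (prior count 2).

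On simulated counts with 100 genes changed 3-fold and 100 changed 6-fold, edgeR recovered 91% and 100% in the HEK293T design (18687 genes, 13 false among 204 calls), 90% and 99% in the NPC design (20198 genes, 16 of 205) and 59% and 97% for the interaction (19172 genes, 10 of 166). The changed genes were drawn only from genes above a minimum mean level, and recovery was not split by level. These rates therefore do not give the power for the members in HEK293T cells. Nor do they for PCDHGC5 in either cell type, with group means of 0.0671 to 0.786 CPM. Alternatives were DESeq2 1.42.0, voom (limma 3.58.1, the test of the study), other scalings and filters, 1 fit of all libraries, and each library left out. Library pairs within groups differed by more than sampling noise, with a chi-square per degree of freedom of 10.5 to 45.5, or 72.0 and 81.9 for the pairs of KO HEK293T library S18 with S20 and S19. RefSeq promoters matched 4 of 5 members, and PCDHGC5 had none. Figures were drawn with matplotlib.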

Additional observations from a re-analysis of the deposited data

Results flagged for a closer look

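The KO effect on PCDHGC4 differed between the cell types, which is why it is listed here. The log2 FC was 2.34 in HEK293T cells and -2.74 in NPCs, and the difference was -5.06 on the log2 scale (edgeR interaction test, adjusted P = 0.000232). All 3 KO HEK293T libraries were above the WT HEK293T libraries (as for 7.16% of genes), and both KO NPC libraries were below the WT NPC libraries (33.8%).

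The KO effect on PCDHGC3 also differed, with a log2 FC of 2.97 in HEK293T cells and 0.74 in NPCs and a difference of -2.21 (adjusted P = 0.0232, 0.00226 to 0.0936 over 16 alternatives). In NPCs the libraries of PCDHGC3 overlapped between WT and KO. Groups of 2 or 3 libraries were not tested for single values that stand apart.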

How the results depend on the processing

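The fall of PCDHGC4 and the rise of PCDHAC2 in NPCs, the interaction of PCDHGC4 and the higher WT NPC levels of all members but PCDHGC5 kept their direction and call under every alternative. With voom 1 member was called higher in KO HEK293T cells in place of 2, as PCDHGC4 missed the threshold (2.29), and 1 in place of 2 had a lower effect in NPCs, as PCDHGC3 missed it (-2.29). With library size alone the interaction of PCDHGC5 turned to -0.051, and the median of all genes moved to 0.0977 in HEK293T cells, -0.13 in NPCs and -0.238 for the interaction. Leaving out 1 library at a time gave 0 to 2 members called higher in KO HEK293T cells, with a log2 FC of 2.76 to 3.47 for PCDHGC3, 1.97 to 2.59 for PCDHGC4 and -0.25 to 1.61 for PCDHGC5, the last turned without KO library S20. In NPCs it gave 1 to 3 members called higher, with 2.19 to 2.57 for PCDHAC1, 0.12 to 1.18 for PCDHGC3 and 0.32 to 1.58 for PCDHGC5, whose lowest and highest values came without S5 and S3. For the interaction it gave 1 to 2 called lower, with -2.81 to -1.76 for PCDHGC3 and -0.75 to 1.10 for PCDHGC5, which was negative without S17 (-0.75), S19 (-0.37) or S5 (-0.35). Between WT cell types PCDHGC5 was at 1.85 to 3.52. Between KO cell types 0 to 1 member was called lower, with PCDHGC4 at -1.50 to -0.88 and PCDHGC5 at 2.25 to 3.72. The cause of these changes was not tested, though 1 library fewer also left 44 to 116 genes called in HEK293T cells in place of 93. Over the whole exonic length, shared exons included, levels per kb were lower. PCDHAC1 was at 0.0915 and 0.490, PCDHAC2 at 0.140 and 1.10 and PCDHGC4 at 1.73 and 0.260 CPM per kb in WT and KO NPCs, PCDHGC3 at 4.29 in WT NPCs and PCDHGC5 at 0.156 in KO NPCs. PCDHGC4 was at 0.122 in WT and, with PCDHGC3 at 0.634, at 0.619 in KO HEK293T cells, where these 2 changed places. Genes of the other lists kept their call in 2160 of 2246 fits over 150 results, with 86 losses and 0 reversals. Depth limits PCDHGC5, with at most 18 counts in a library, and the alpha members in HEK293T cells, whose counts were at or below the floor. No paired analysis was possible because the labels give each library a number of its own that no other group shares.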
